A study of Rattus norvegicus with 52 samples.

Results

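Basal/myoepithelial mammary cells of 6-week-old Cdkn1b-/- and Cdkn1b+/+ ACI rats were compared in 5 RNA-seq libraries, out of 48 RNA count files and 52 samples in the series. They are all the basal libraries labelled 6 weeks: WTRM, WTLU and WTRU from Cdkn1b+/+ rats, and KORU and KOLM from Cdkn1b-/- rats, each named by the animal code in its title. The study describes this age group as 5 to 6 weeks old. Cells were sorted from the mammary gland as Cd24+ Cd29HIGH. Both genotypes are females labelled ACI and, by the series' design text, littermates of heterozygous crosses unless stated otherwise, and the mutants carry 1 of 2 small deletions in the first coding exon of Cdkn1b, called DEL-32 and DEL-65. Which of the deletions KORU or KOLM carries is not in the labels used here. The lines were crossed from an outbred Sprague-Dawley background into ACI, with early and late backcross generations in use, and the generation of these animals is not given in the sources used here. The deletion is in every cell of the animal, so epithelium, stroma and endocrine organs all lacked p27. Luminal libraries (Cd24+ Cd29LOW) of the same age, 2 of each genotype and all from animals that also gave a basal library, and 9 basal libraries of 4 and 9 weeks served for comparison.

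Cdkn1b encodes p27, an inhibitor that binds cyclin and cyclin-dependent kinase complexes and holds cells in G1. Basal cells form the outer layer of the mammary ducts, are marked by keratins 5 and 14 and the transcription factor p63, and mature into contractile myoepithelium. In a sorted bulk sample, fewer cells of a type and less RNA per cell cannot be told apart.

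Counts on genes totalled 7985619 to 16390460 in each of the 5 basal libraries, against 17316342 to 26392587 in those of 4 and 9 weeks. Reads aligned outside annotated genes took 26.3% of all reads in WTRM, 12.4% in WTLU, 30.8% in WTRU, 12.2% in KORU and 15.6% in KOLM, against 9.30% to 15.4% in the 9 basal libraries of other ages. WTRU stood apart: its Spearman correlation with the other 4 libraries, over 12500 genes and on one scaling, was at most 0.823, against 0.941 between WTRM and WTLU and 0.978 between KORU and KOLM. WTRU also held more leukocyte RNA, with a summed level of 15 myeloid genes of 324 CPM (a gene's share of the counts, in millionths, scaled by TMM over all 18 libraries used) against 22.7 to 107 in the other 4; Nkg7, of cytotoxic lymphocytes, was at 92.6 in WTRU and at most 0.271 in the others, while the T cell gene Cd3e was listed at 0 in it. Counts of genes that passed are therefore given also without WTRU, while counts of genes without overlap and single fold changes include it unless stated. Among the 9 libraries of 6 weeks, the luminal library of KOLM was the farthest from each of the 5 basal ones (Euclidean distance of log2 CPM). It enters the comparison of basal cells only through the estimate of spread, the normalization and the choice of genes tested (11921 with it, 12742 without).

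The sort was checked on markers. Krt5 was at 336, 379 and 317 CPM in the Cdkn1b+/+ basal libraries and 1350.2 and 1347 in the Cdkn1b-/- ones, against 3.20 and 1.11 and 10.3 and 28.3 in luminal libraries of the 2 genotypes. Tp63, the p63 gene, was at 56.1, 64.3 and 16.1 and 128 and 183 CPM in basal cells and at most 0.334 in luminal cells. Krt18, a luminal keratin, was at 199, 274 and 213 and 108 and 154 CPM in basal cells against at least 1963 in luminal cells, and Elf5, a luminal progenitor factor, did not exceed 0.502 in the basal libraries. All 5 libraries had the markers of basal cells, at unequal levels that are described further on.

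Transcripts of the targeted gene were counted at 20.7, 22.2 and 3.11 CPM in WTRM, WTLU and WTRU and at 10.2 and 11.7 CPM in KORU and KOLM. The mutants lay below WTRM and WTLU but above WTRU, so the groups overlapped (log2 fold change -0.50, SE 0.97, unadjusted p = 0.623). WTRU, the library labelled Cdkn1b+/+, thus had fewer Cdkn1b reads than either mutant. A count over the whole gene does not read the deletion itself, and so does not check the genotype.

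The genotypes were compared by the quasi-likelihood test of edgeR in a fit of all 9 libraries of 6 weeks, with Benjamini-Hochberg adjustment over 11921 genes. No gene passed an adjusted p of 0.05 (0% called). The smallest adjusted p was 0.138. At an unadjusted p under 0.05 there were 1072 genes (8.99%), of which 603 were higher in Cdkn1b-/- cells (5.06%) and 469 lower (3.93%). The genotypes did not overlap, with both mutants beyond all 3 wild-type libraries, in 3138 genes that were higher (26.3%) and 1737 that were lower (14.6%), and the median log2 fold change of all genes was 0.08. DESeq2's Wald test called 330 genes in the same 9 libraries and 832 in the 5 basal libraries alone, 343 higher (3.04%) and 489 lower (4.34%), where edgeR called 1, Nqo1 (chosen for mention after its value was seen).

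A fit of all 14 basal libraries of 4, 6 and 9 weeks, with a group for each age and genotype, gave 584 genes (4.67%) for the same contrast, 419 higher (3.35%) and 165 lower (1.32%) in Cdkn1b-/- cells. It takes part of its estimate of spread from the other ages (common dispersion 0.33, against 0.77 in the 9-library fit) and so assumes that the 6-week libraries vary like those. Without WTRU it called 1154 genes, 822 higher (6.67%) and 332 lower (2.69%), and 560 of the 584 were among them. Without KORU or KOLM, which leaves 1 mutant, it called 42 and 74 genes, and without WTLU 951. In what follows, a list's counts can be read against these shares of all genes. A gene "passed in the joint fit" where its adjusted p there was under 0.05, while fold changes, standard errors (SE) and unadjusted p are those of the 9-library fit unless stated. Each SE was derived from the test, as the absolute log2 fold change over the square root of its F statistic.

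Against the other ages, the wild-type libraries were the ones that stood out. In 12500 genes, all 3 Cdkn1b+/+ libraries of 6 weeks lay above each of the other 11 basal libraries in 799 genes (6.39%) and below each of them in 1431 (11.4%). Both Cdkn1b-/- libraries of 6 weeks lay above each of the other 12 in 121 genes (0.968%) and below in 43 (0.344%). With WTRU left out, which leaves 2 libraries of each genotype against 11 others, the counts were 1462 (11.7%) and 2079 (16.6%) for wild type and 146 (1.17%) and 89 (0.712%) for the mutants. The Spearman correlation of the mutant libraries with the 5 basal libraries of 4 weeks, 2 of them Cdkn1b-/-, ranged from 0.899 to 0.968 (median 0.961). That of the Cdkn1b+/+ libraries ranged from 0.748 to 0.907 (median 0.848). With the 4 libraries of 9 weeks the ranges were 0.902 to 0.936 and 0.702 to 0.873. These are descriptions over genes, and the libraries of different ages also differ in depth.

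**Figure D1:**
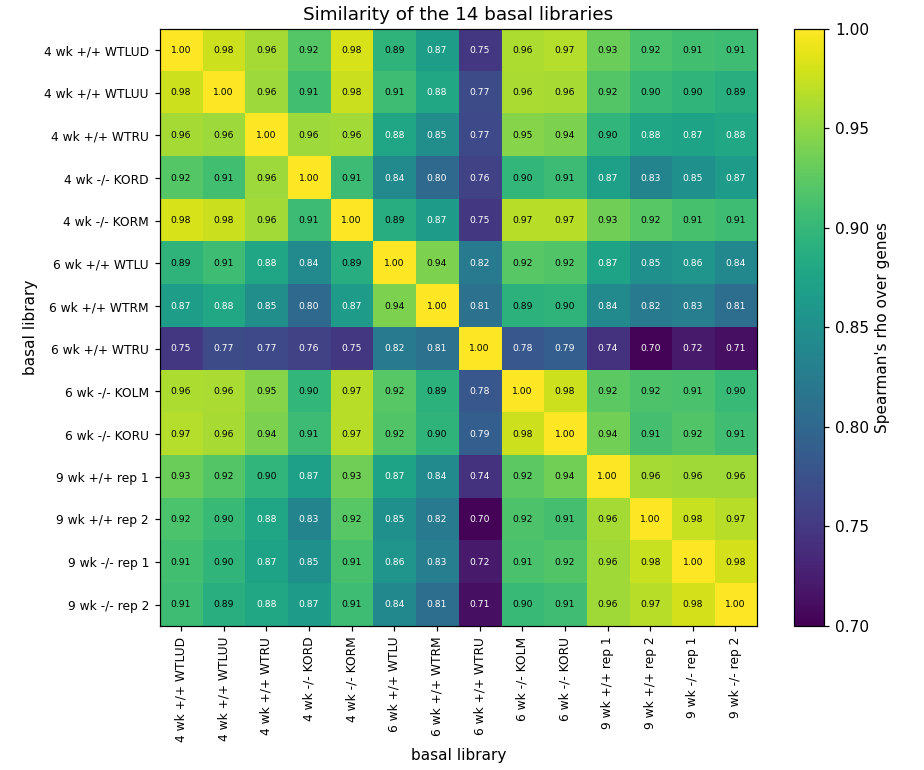
Spearman's rho over 12500 genes between each pair of the 14 basal libraries (rows and columns, named by age, genotype and animal or replicate). The 3 Cdkn1b+/+ libraries of 6 weeks form the darker bands, WTRU the darkest, while KORU and KOLM reach up to 0.968 with libraries of 4 weeks.

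Genes of the oxidative stress response were lower in Cdkn1b-/- cells. Nrf2 is a transcription factor that is held in the cytoplasm by Keap1 and, once oxidants or electrophiles release it, binds antioxidant response elements before genes for glutathione synthesis, quinone reduction, heme breakdown and iron storage. Of 36 tested genes known as Nrf2 targets, a list written after the levels were seen, 29 had lower and 7 higher fitted levels in Cdkn1b-/- basal cells, and 23 were lower with no overlap of the genotypes (14.6% of all genes were). The median log2 fold change was -1.47, against 0.08 over all genes. In the joint fit 17 passed, all lower (1.32% of all genes passed lower), and 19 lower and 1 higher without WTRU (2.69% and 6.67% of all genes). All 3 wild-type libraries lay above every other basal library in 15 of the 36.

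Nqo1, a quinone reductase, was at 1207, 1961 and 1298 CPM in WTRM, WTLU and WTRU and at 74.7 and 29.9 in KORU and KOLM (log2 fold change -4.84, SE 0.65, unadjusted p = 2.67e-05, adjusted p = 0.138). The wild-type libraries were all above the mutants, and the 9 basal libraries of 4 and 9 weeks held 8.32 to 66.9 CPM. Nqo1 passed the threshold in 15 of 23 alternative analyses. Gclm and Gclc encode the modifier and catalytic subunits of glutamate-cysteine ligase, which makes the first step of glutathione synthesis. Gclm was at 1415, 860.3 and 1418 CPM in wild type and 58.5 and 35.3 in mutants (log2 fold change -4.73, SE 1.17, unadjusted p = 0.00249), and at 24.1 to 74.4 in the other basal libraries. Gclc was at 2871, 1877 and 759 against 143 and 99.9 CPM (log2 fold change -3.93, SE 0.65, unadjusted p = 0.000147), with WTRU the lowest of the wild-type libraries and still above both mutants.

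Hmox1, heme oxygenase, was at 19448, 17095 and 22483 CPM in wild type and 3308 and 1432 in mutants (log2 fold change -3.07, SE 0.56, unadjusted p = 0.000289). In the other basal libraries it ranged from 549.6 to 4948 CPM. Akr1b8, an aldo-keto reductase, had the largest difference of the leading genes, 426, 213 and 296 against 3.19 and 3.01 CPM (log2 fold change -6.66, SE 0.94, unadjusted p = 4.03e-05). At the other ages it was at 0.264 to 7.33 CPM. Its relative Akr1b1, aldose reductase, was at 2636, 1946 and 2195 against 403 and 285 CPM (log2 fold change -2.73, SE 0.47, unadjusted p = 0.000204). Reads that such related genes share were left uncounted by the authors' counter, so the split between them is uncertain.

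Osgin1, an oxidative stress induced growth inhibitor, was at 163, 298 and 231 CPM in wild type and 31.4 and 22.2 in mutants (log2 fold change -3.12, SE 0.47, unadjusted p = 6.76e-05). Srxn1, which restores oxidised peroxiredoxins, had 892, 864 and 397 against 93.4 and 38.8 CPM, and Slc7a11, the cystine importer, 689.9, 523 and 623 against 58.0 and 73.1. The ferritin subunits differed alike: Fth1 was at 14472, 14870.1 and 27709.8 against 3198 and 2328 CPM, and Ftl1 at 3400.1, 4490.1 and 8158 against 1273 and 1079.7, both genes with many processed copies in the genome. Each of these 5 genes passed in the joint fit (adjusted p there from 0.00351 to 0.0413), and in each both mutants lay below all wild-type libraries.

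**Figure D2:**
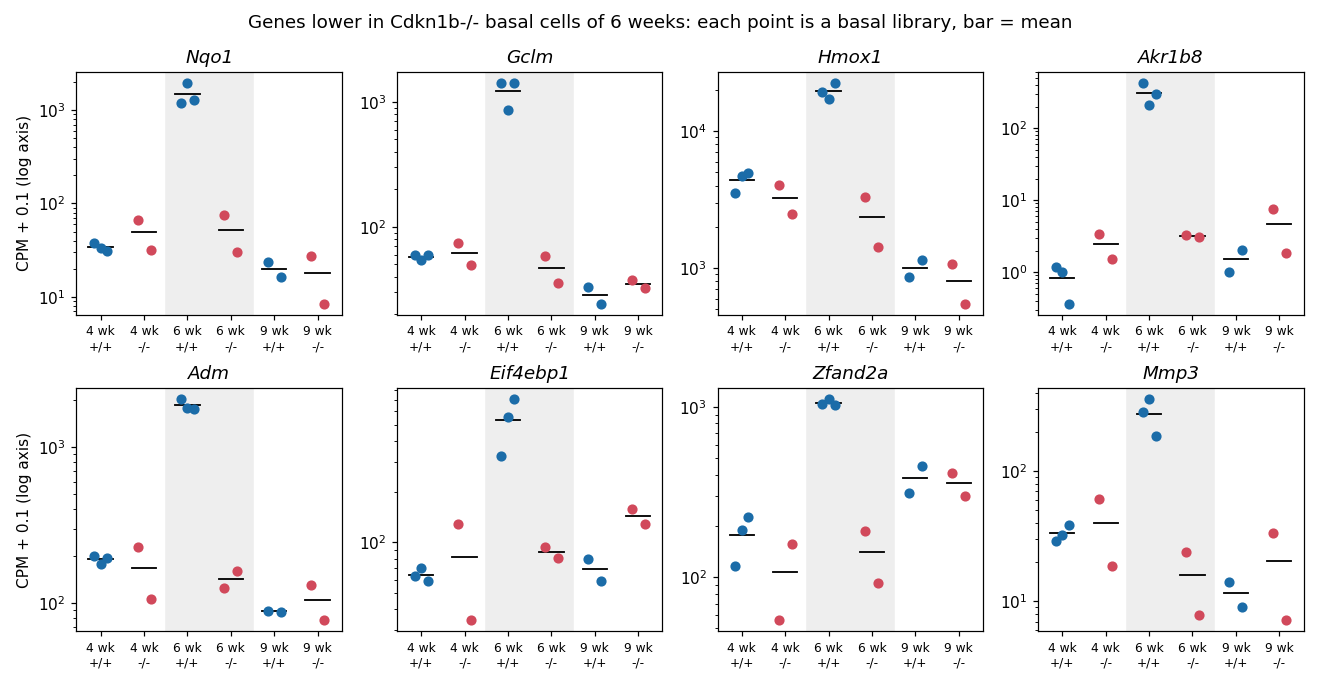
CPM (plus 0.1, log axis) of 8 genes in the 14 basal libraries by age and Cdkn1b genotype; each point is a library and each bar a mean, with the 6-week groups shaded. The 3 wild-type libraries of 6 weeks stand above the other 11 in all 8 panels.

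The letters of an antioxidant response element, TGACNNNGC on either strand, occur in 12.1% of 33469 RefSeq promoters of the rat (build GRCr8, 250 bases before to 50 after the start). They occur in 8 of the 32 Nrf2 targets with a promoter entry (25%), but also in 5 of 15 myelin promoters (33.3%), whose genes were higher in the mutants, so the letters do not set the lower genes apart. The promoters of Gclm and of Zfand2a, a leading gene described next, are shown so that the element can be seen in place, with the match in capitals.
Gclm (chr2:213031885-213032184, + strand): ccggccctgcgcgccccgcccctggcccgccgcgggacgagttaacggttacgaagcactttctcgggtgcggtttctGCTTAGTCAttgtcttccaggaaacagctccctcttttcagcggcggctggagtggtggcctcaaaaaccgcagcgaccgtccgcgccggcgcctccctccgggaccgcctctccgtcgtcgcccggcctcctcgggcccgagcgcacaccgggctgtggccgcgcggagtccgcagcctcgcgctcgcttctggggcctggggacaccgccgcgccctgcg
Zfand2a (chr12:20275200-20275499, + strand): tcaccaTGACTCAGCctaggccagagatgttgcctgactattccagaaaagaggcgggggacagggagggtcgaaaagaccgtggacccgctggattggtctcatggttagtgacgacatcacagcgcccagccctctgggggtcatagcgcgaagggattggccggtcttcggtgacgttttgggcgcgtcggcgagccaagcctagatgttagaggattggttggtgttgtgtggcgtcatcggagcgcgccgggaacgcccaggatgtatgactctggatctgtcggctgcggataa
In Gclm the match lies on the opposite strand, starting 172 bases before the start of the gene. In Zfand2a it starts at 244 bases before. A match is a description of letters and not a site of binding.

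Genes outside that list were among the 15 leading lower genes too. Adm encodes adrenomedullin, a vasodilator peptide induced by low oxygen and stress, and stood at 2028, 1774 and 1760.1 CPM in wild type and 124 and 161 in mutants (log2 fold change -3.71, SE 0.57, unadjusted p = 8.60e-05). The other ages held 77.8 to 227 CPM. Of 20 tested genes induced by low oxygen, a list also written later, 10 were higher and 10 lower, with a median of -0.05, and 1 passed in the joint fit, Adm itself, and 2 without WTRU. Agpat2, an acyltransferase of phospholipid and triglyceride synthesis, was at 184, 230.4 and 137 against 16.4 and 11.7 CPM (log2 fold change -3.71, SE 0.65, unadjusted p = 0.000218). Zfand2a, a zinc finger protein induced by arsenite and heat, was at 1033, 1109 and 1022 against 187 and 92.3 (log2 fold change -2.93, SE 0.47, unadjusted p = 0.000121), and Cited2, a transcriptional co-regulator of CBP/p300, at 607, 676 and 891 against 144 and 148 (log2 fold change -2.32, SE 0.38, unadjusted p = 0.000128).

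A pair of genes for the breakdown of matrix around cells was also lower in the mutants. Plaur, the urokinase receptor, was at 321, 446 and 384 CPM in wild type and 58.0 and 32.6 in mutants (log2 fold change -3.09, SE 0.42, unadjusted p = 3.23e-05). Mmp3, stromelysin, was at 284, 357 and 185 and 23.8 and 7.78 CPM (log2 fold change -4.13, SE 0.61, unadjusted p = 5.49e-05). At other ages Plaur ranged from 20.0 to 227 CPM and Mmp3 from 7.09 to 61.2, below all wild-type values of 6 weeks. Eif1ad, a protein with an initiation factor domain, was at 243, 372 and 492 against 69.3 and 70.7 CPM (log2 fold change -2.41, SE 0.43, unadjusted p = 0.000253). All 15 leading lower genes passed in the joint fit, with and without WTRU, and each of them was above all other basal libraries in the 3 wild-type ones. They were chosen on these same libraries, so passing in further fits is no independent evidence. Over the 23 alternatives their adjusted p ranged from 2.98e-44 to 1, and each passed in 11 to 15 of them.

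Genes for amino acid supply formed another lower group. When uncharged tRNA or endoplasmic reticulum stress halts translation, the factor Atf4 turns on amino acid transporters, amino acid synthesis and aminoacyl-tRNA synthetases, the enzymes that load each tRNA. Of 27 tested Atf4 targets, 24 had lower fitted levels in mutants (median -1.41), 15 were lower without overlap (14.6% of all genes were), and 8 passed in the joint fit, all lower (1.32% of all), and 12 without WTRU (2.69%). Of 20 cytosolic tRNA synthetases, 18 were lower (median -1.45), 15 without overlap, and 8 passed in the joint fit, 11 without WTRU. Both lists were written after the levels were seen.

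Lars, the leucine synthetase and one of the 15 leading genes, was at 366, 524 and 372 CPM in wild type and 97.6 and 93.5 in mutants (log2 fold change -2.15, SE 0.38, unadjusted p = 0.00022). Nars, for asparagine, had 1277, 1578 and 1325 against 414 and 412 CPM (log2 fold change -1.77, SE 0.38, unadjusted p = 0.00101), and Yars, for tyrosine, 617, 794 and 503 against 184 and 154 (log2 fold change -1.93, SE 0.42, unadjusted p = 0.00116). Eprs, for glutamate and proline, had 1086, 1255 and 819.7 against 292 and 256 CPM. Mars, for methionine, had 327, 292 and 111 against 85.2 and 82.9, so that WTRU was much nearer the mutants than the other wild-type libraries were; its adjusted p in the joint fit was 0.0703, and 0.00969 without WTRU. In 13 of the 20 synthetases the wild-type libraries of 6 weeks lay above each of the other 11 basal libraries.

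Asns, asparagine synthetase, was at 219, 184 and 143 against 45.4 and 40.6 CPM (log2 fold change -2.09, SE 0.41, unadjusted p = 0.000477), and Psph, the last enzyme of serine synthesis, at 179, 249 and 183 against 55.4 and 36.2 (log2 fold change -2.16, SE 0.44, unadjusted p = 0.000709). Trib3, a pseudokinase that feeds back on Atf4, was at 131, 322 and 204 against 58.2 and 43.9. Slc3a2, the heavy chain of large amino acid transporters, was at 3422, 3485 and 3962 against 1523 and 1508. Transcripts of Atf4 itself, a factor controlled mainly by translation, were at 1434, 1484 and 1821 and 1784 and 1898 CPM and overlapped. Eif4ebp1, the translation repressor 4E-BP1, which the study names and Atf4 can induce, was at 326, 559 and 709 CPM in wild type and 93.7 and 80.9 in mutants (log2 fold change -2.62, SE 0.45, unadjusted p = 0.000201).

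The letters TGATGNAA, of the element that Atf4 binds with C/EBP factors, are in 3.98% of all rat promoters, in 7 of 17 tRNA synthetase promoters (41.2%) and in 6 of 25 of the Atf4 targets (24%). The promoters of Yars and Mars, listed in RefSeq as Yars1 and Mars1, and of Trib3 are given with the match in capitals.
Yars (chr5:146819913-146820212, + strand): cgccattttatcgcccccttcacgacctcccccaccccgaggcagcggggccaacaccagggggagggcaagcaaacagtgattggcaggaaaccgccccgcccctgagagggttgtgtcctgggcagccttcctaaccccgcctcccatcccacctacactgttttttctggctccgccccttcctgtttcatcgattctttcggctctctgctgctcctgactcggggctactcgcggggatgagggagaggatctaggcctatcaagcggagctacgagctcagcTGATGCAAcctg
Mars (chr7:65023704-65024003, - strand): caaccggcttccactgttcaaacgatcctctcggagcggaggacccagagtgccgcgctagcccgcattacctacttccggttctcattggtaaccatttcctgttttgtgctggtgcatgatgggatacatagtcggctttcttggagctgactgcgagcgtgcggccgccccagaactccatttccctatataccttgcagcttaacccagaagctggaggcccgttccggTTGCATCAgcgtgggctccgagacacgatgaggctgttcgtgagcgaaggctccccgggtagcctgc
Trib3 (chr3:161275484-161275783, - strand): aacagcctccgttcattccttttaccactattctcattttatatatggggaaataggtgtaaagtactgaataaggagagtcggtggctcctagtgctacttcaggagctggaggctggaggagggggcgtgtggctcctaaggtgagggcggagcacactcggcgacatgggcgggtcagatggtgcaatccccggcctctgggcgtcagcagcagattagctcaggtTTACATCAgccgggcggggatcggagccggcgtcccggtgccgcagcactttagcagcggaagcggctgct
The match starts 39 bases after the start of Yars, 17 before that of Mars and 21 before that of Trib3, on the opposite strand in the last pair. Of the 45 ribosome biogenesis promoters, 2.22% held these letters.

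Ribosome biogenesis factors, which process ribosomal RNA and assemble subunits in the nucleolus, were lower as a list. Each of the 46 tested had a lower fitted level in Cdkn1b-/- cells (median -1.36), 39 with no overlap (14.6% of all genes were lower so), and 21 passed in the joint fit (1.32% of all lower), 24 without WTRU (2.69%). Nop56, a core box C/D protein, was at 1161, 1488 and 1222 CPM in wild type and 404 and 339 in mutants, and Ncl, nucleolin, at 1761, 1782 and 2209.8 and 769 and 680.3. Nop2, an rRNA methyltransferase, was at 176, 118 and 121 against 41.6 and 22.4 CPM (log2 fold change -2.12, SE 0.49, unadjusted p = 0.00167), and Wdr12, of the PeBoW complex, at 203, 251 and 175 against 64.6 and 45.6 (log2 fold change -1.94, SE 0.45, unadjusted p = 0.00161). In 33 of the 46 all wild-type libraries of 6 weeks were above each other basal library. The summed level was 12733, 14044 and 14137 CPM in wild type, 5683 and 4852 in mutants, and 2109 to 5527 at the other ages. This list, too, was written after the levels were seen.

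The 79 ribosomal protein genes themselves differed less: none had an unadjusted p under 0.05, 63 were lower and 16 higher, and the median was -0.28. Translation initiation factors, a group the study takes up at this age, had 38 of 43 members lower (median -0.64), 26 of them without overlap (14.6% of all genes were lower so), with 9 at an unadjusted p under 0.05, all lower (3.93% of all). In the joint fit 3 passed, all lower (1.32% of all), and 4 without WTRU (2.69%). Of the abundant members, Eif5a was at 2214, 2963 and 2847 against 2052 and 1361 CPM and did not pass in the joint fit (adjusted p = 0.368). Eif4a1, the RNA helicase, was at 2099, 2659.8 and 1891 against 2088 and 1695, and the genotypes overlapped. Eif2s2, a subunit of the factor that brings initiator tRNA, was at 918, 1456 and 2170.0 against 470.1 and 457 (log2 fold change -1.72, SE 0.69, unadjusted p = 0.0321). Eif3d, a cap-binding subunit of eIF3 that the study names, was at 229.9, 189.9 and 228 against 88.4 and 64.8 (log2 fold change -1.51, SE 0.48, unadjusted p = 0.011, adjusted p = 0.0264 in the joint fit). Of 34 proteasome subunits 33 were lower, with a median of -0.69, and none passed in the joint fit, 1 without WTRU.

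Heat shock genes were lower as a list: 36 of 43 had lower fitted levels (median -0.93), 27 without overlap (14.6% of all genes were lower so), and 14 had an unadjusted p under 0.05 in the lower direction (3.93% of all) and 1 in the higher (5.06%). In the joint fit 3 of 42 passed, all lower (1.32% of all), and without WTRU 3 lower (2.69%) and 1 higher (6.67%). Hsph1, the Hsp110 co-chaperone, was at 237, 386 and 518 CPM in wild type and 109 and 109 in mutants (log2 fold change -1.82, SE 0.48, unadjusted p = 0.00394). Hspd1, the mitochondrial Hsp60, was at 473, 584 and 567 against 291 and 186 (log2 fold change -1.19, SE 0.38, unadjusted p = 0.0102). The inducible Hsp70 genes were uneven: Hspa1a was at 251, 455 and 1321 CPM in WTRM, WTLU and WTRU and 157 and 253 in mutants, where KOLM reached the level of WTRM, and Hspa1b at 256, 534 and 1889 against 155 and 356. WTRU was the highest in both genes, and neither passed in the joint fit (adjusted p = 0.119 and 0.15). These genes are nearly identical in sequence, so their counts are uncertain. Hspa8, the constitutive Hsp70, was at 847, 1149 and 1613 against 663 and 586 CPM (log2 fold change -0.96, SE 0.46, unadjusted p = 0.0656). Of other abundant members, Hspa5 of the endoplasmic reticulum was at 3442, 2765 and 3077 against 2581 and 2043, Hsp90ab1 at 2214, 2095 and 2711 against 1537 and 1451, and Dnajb1 at 1002, 2299 and 1391 against 983 and 1197, and none of these 3 passed in the joint fit.

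In 7 of 36 heat shock promoters the letters GAA, TTC and GAA occurred in this order on either strand with 2 bases of any kind between each, a triple heat shock element (19.4%, against 0.798% of all). That of Hsph1 is shown with the match in capitals.
Hsph1 (chr12:10427118-10427417, + strand): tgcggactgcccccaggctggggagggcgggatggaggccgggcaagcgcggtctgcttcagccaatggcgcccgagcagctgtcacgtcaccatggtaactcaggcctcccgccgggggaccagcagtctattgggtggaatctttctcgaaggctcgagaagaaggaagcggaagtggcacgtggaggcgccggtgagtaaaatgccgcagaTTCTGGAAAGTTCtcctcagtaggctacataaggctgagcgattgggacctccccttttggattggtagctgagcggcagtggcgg
The match starts 36 bases before the start of the gene, on the opposite strand.

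On the other side, genes of Schwann cells were higher in the mutants. Schwann cells wrap the axons of peripheral nerves in myelin, a stack of membrane held together by proteins such as Pmp22. Of 18 tested myelin genes 16 had higher fitted levels in Cdkn1b-/- libraries (median 3.32, against 0.08 over all genes), 14 without overlap (26.3% of all genes were higher so), and 8 passed in the joint fit (3.35% of all higher), 11 without WTRU (6.67%). Of 19 general Schwann cell genes 17 were higher (median 2.61), 15 without overlap (26.3% of all). In the joint fit 6 of 18 passed, all higher (3.35% of all), and 6 without WTRU (6.67%). The summed myelin level was 455, 175 and 425 CPM in WTRM, WTLU and WTRU and 3460 and 2394 in KORU and KOLM, and 402 to 3306 in the basal libraries of the other ages.

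Pmp22 was at 89.4, 50.1 and 80.7 CPM in wild type and 756 and 545 in mutants (log2 fold change 3.14, SE 0.49, unadjusted p = 9.23e-05), and Cnp, a myelin enzyme, at 33.0, 21.5 and 31.7 against 300.1 and 191 (log2 fold change 3.08, SE 0.64, unadjusted p = 0.000759). S100b, a calcium-binding protein of glia, was at 12.5, 6.66 and 4.48 against 226 and 164 CPM (log2 fold change 4.61, SE 0.71, unadjusted p = 8.48e-05). At the other ages S100b ranged from 12.3 to 181 and Pmp22 from 78.2 to 924. KORU was above that range in S100b, and WTLU and WTRU were below it; in Pmp22 both mutants were inside it and WTLU was below. Scn7a, a sodium channel of glia, was at 108, 10.2 and 16.8 against 564 and 495, and Plekhb1 at 40.5, 35.6 and 93.0 against 376 and 395.

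Some were listed at 0 in all 3 wild-type libraries. Rxrg, a retinoid receptor, had 365 and 258 counts in KORU and KOLM (24.8 and 16.2 CPM), at least 256-fold above the level that 3 counts over the 3 wild-type libraries would give. Ugt8, which makes the galactolipid of myelin, had 313 and 253 counts and was at least 232-fold higher, Mmd2 had 211 and 192 counts (at least 165-fold) and Aspa, aspartoacylase, 128 and 137 (at least 108-fold). These bounds cover counting error only. Sox10, the master factor of Schwann cells that mammary basal cells also express, was at 240.4, 293 and 84.9 CPM in wild type and 363 and 189 in mutants and overlapped (log2 fold change 0.41, SE 0.54, unadjusted p = 0.467).

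Stromal genes were higher as well. Of 12 tested fibroblast genes 11 were higher in mutants (median 2.77), 8 without overlap (26.3% of all genes were). In the joint fit 6 of 13 passed, all higher (3.35% of all), and 6 without WTRU (6.67%). Their summed level was 657, 130 and 283 CPM in wild type, 3513 and 2512 in mutants and 926 to 8108 at the other ages. Col1a1, the main chain of collagen I, was at 85.1, 18.8 and 42.4 against 774 and 535 CPM (log2 fold change 3.73, SE 1.01, unadjusted p = 0.00431), Col3a1 at 399.9, 38.2 and 105 against 2193 and 1458 (log2 fold change 3.32, SE 1.35, unadjusted p = 0.0345), and Serpinf1 at 18.2, 9.30 and 14.8 against 184 and 83.1 (log2 fold change 3.23, SE 1.05, unadjusted p = 0.0123). Of 17 collagen genes, 5 of them with an unadjusted p under 0.05, 16 were higher (median 1.86), 14 without overlap (26.3% of all), and 3 passed in the joint fit (3.35% of all), 2 without WTRU (6.67%). Eln, elastin, a gene the study names, was at 2.30, 5.53 and 1.12 CPM in wild type and 93.8 and 98.9 in mutants (log2 fold change 4.98, SE 1.32, unadjusted p = 0.00384), and at 33.4 to 340.0 at other ages.

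Endothelial genes summed to 76.9, 126 and 71.1 CPM in wild type and 205 and 118 in mutants, which overlapped, and myeloid genes to 32.7, 22.7 and 324 against 107 and 47.6. Taken gene by gene, 13 of 16 tested endothelial genes were higher in mutants and 3 lower (median 3.02). Of the 16, 11 were higher without overlap (26.3% of all genes were) and 6 were higher at an unadjusted p under 0.05 (5.06% of all). In the joint fit 1 passed, higher (3.35% of all). Adipocyte genes were at 38.2, 12.5 and 21.9 against 53.0 and 28.9 CPM, which overlapped. Of 6 tested adipocyte genes 5 were higher (median 2.77), none of them at an unadjusted p under 0.05. The 5 genes of red blood cells did not exceed a sum of 0.498 CPM in any of the 5 libraries. Pericyte genes summed to 34.1, 12 and 27.6 CPM in wild type and 72.4 and 77.7 in mutants, skeletal muscle genes to 22.8, 28.5 and 55.9 against 88 and 84.2, and the epidermal keratinocyte genes found in the files to 451, 647 and 797 against 3821 and 1978. These sums did not overlap, but few members carried them. The epidermal sum was mostly Krt15, a keratin of basal epithelial cells whose levels are given below. Of the tested genes, 1 of 3 epidermal genes was higher and 2 lower (median -0.82), and none of 5 skeletal muscle genes had an unadjusted p under 0.05. Of 10 pericyte genes 6 were higher (median 0.56), and 2 passed in the joint fit, both higher (3.35% of all). Neuron genes summed to 80.5, 63.8 and 71.2 CPM in wild type and 65.9 and 40.8 in mutants, which overlapped, with 4 of 5 lower. The part of these cell types in the results on single genes was not tested.

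**Figure D3:**
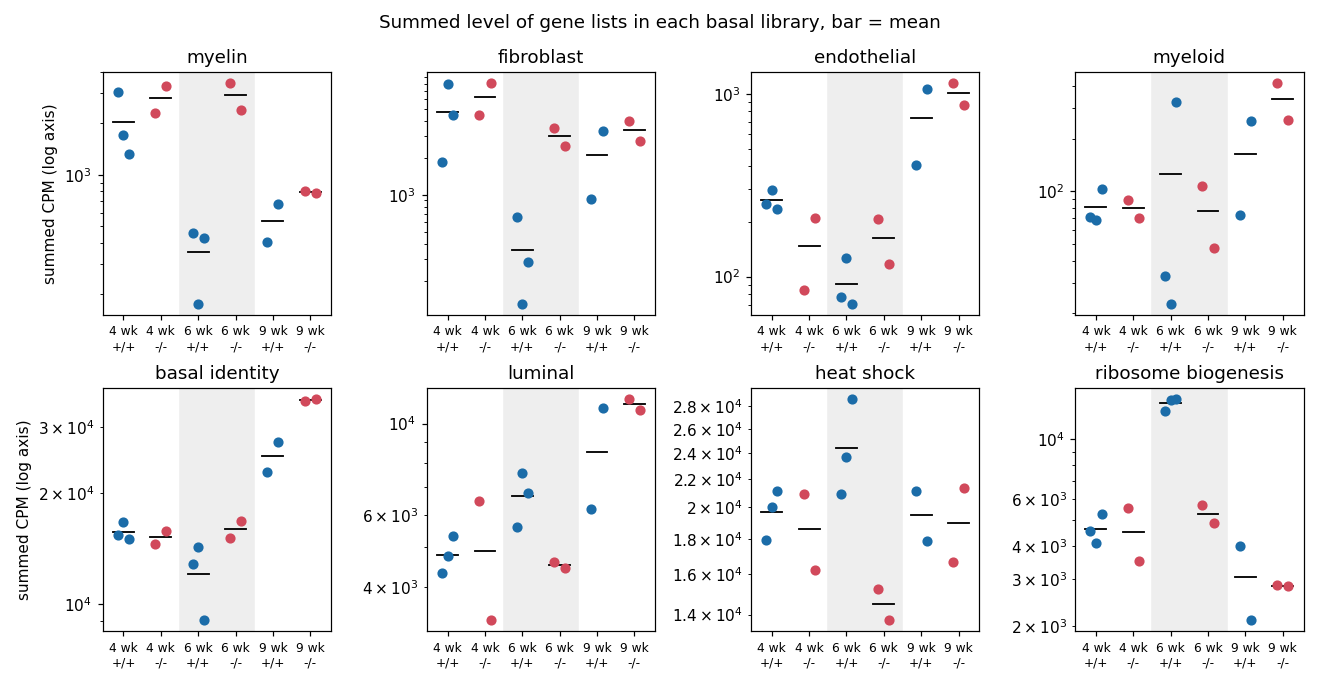
Summed CPM (log axis) of 8 gene lists in the 14 basal libraries by age and genotype; each point is a library and each bar a mean, with the 6-week groups shaded. At 6 weeks the myelin and fibroblast sums do not overlap between genotypes, while the endothelial and myeloid sums do; ribosome biogenesis is highest in the 3 wild-type libraries of 6 weeks.

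Of the basal keratins, Krt5 and Krt15 were higher in the mutants and passed in the joint fit, and Krt14 did not pass. Krt5, at the levels given above, had a log2 fold change of 1.96 (SE 0.52) and an adjusted p of 0.00458 in the joint fit; at 4 and 9 weeks it ranged from 1086 to 3206 CPM, so the wild-type libraries of 6 weeks were low and the mutants within the range. Krt15, a keratin of basal epithelial cells, was at 432, 587 and 686 CPM against 3804 and 1955 (log2 fold change 2.33, SE 0.52, unadjusted p = 0.00127), and at 2262 to 5624 at other ages. Krt14 was at 2327, 2531 and 1742 against 3052 and 4613, without overlap but with an adjusted p of 0.192 in the joint fit. Nrg1, a ligand of ErbB receptors, was at 1584, 1955 and 1548 against 836 and 512 (log2 fold change -1.34, SE 1.13, unadjusted p = 0.264). Of 26 basal identity genes 18 were higher and 8 lower in mutants (median 0.60), 13 higher without overlap (26.3% of all genes were), and 2 passed in the joint fit, both higher (3.35% of all), and 3 higher and 1 lower without WTRU (6.67% and 2.69% of all).

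Of 22 contractile genes of myoepithelium 19 were higher in mutants (median 0.59), 9 without overlap (26.3% of all genes were), and 1 passed in the joint fit (3.35% of all), 3 without WTRU (6.67%). The share that passed in the joint fit was near that of all genes. Their summed level was 11001, 13928 and 14133 CPM in wild type, 22096 and 22953 in mutants and 25439 to 47773 at the other ages. Acta2, smooth muscle actin, was at 41.5, 419 and 88.7 against 655 and 608 CPM, with WTLU well above the other wild-type libraries. Tagln was at 715, 1161 and 1018 against 2478 and 2999.9 (adjusted p = 0.0547 in the joint fit) and Cnn1, calponin, at 752, 1336 and 929.6 against 2327 and 2397 (0.0694). Of 26 luminal genes 16 were lower and 10 higher (median -0.22), and Cd24, a surface antigen used in the sort, was at 459.7, 622 and 556 against 236 and 243 CPM (log2 fold change -1.2, SE 0.36, unadjusted p = 0.00776).

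The other leading genes higher in the mutants had varied roles. Cyb5r3, cytochrome b5 reductase, was at 57.2, 54.8 and 50.4 CPM in wild type and 279 and 219.9 in mutants (log2 fold change 2.19, SE 0.36, unadjusted p = 0.000151). Vwa1, a basement membrane protein also found in peripheral nerve, was at 58.5, 44.1 and 44.7 against 333 and 284 (log2 fold change 2.64, SE 0.49, unadjusted p = 0.000331), and Rab3d, a GTPase of secretory vesicles, at 0.519, 2.14 and 0.622 against 29.6 and 19.2 (log2 fold change 4.44, SE 0.86, unadjusted p = 0.000458). Asah1, acid ceramidase, was at 29.3, 33.5 and 25.1 against 107 and 133, and Anxa6, annexin A6, at 108, 60.2 and 33.9 against 415 and 268. R3hdm4, Aes, Vps25, Copg2, Naxe and Sri completed the set, with log2 fold changes from 1.78 to 3.33. All 15 passed in the joint fit with and without WTRU. These genes, too, were chosen on the same libraries, so passing in further fits is no independent evidence. In 13 of the 15 the wild-type libraries lay below each of the other 11 basal libraries. Over the 23 alternatives their adjusted p ranged from 8.78e-14 to 1, and each passed in 9 to 15 of them.

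**Figure D4:**
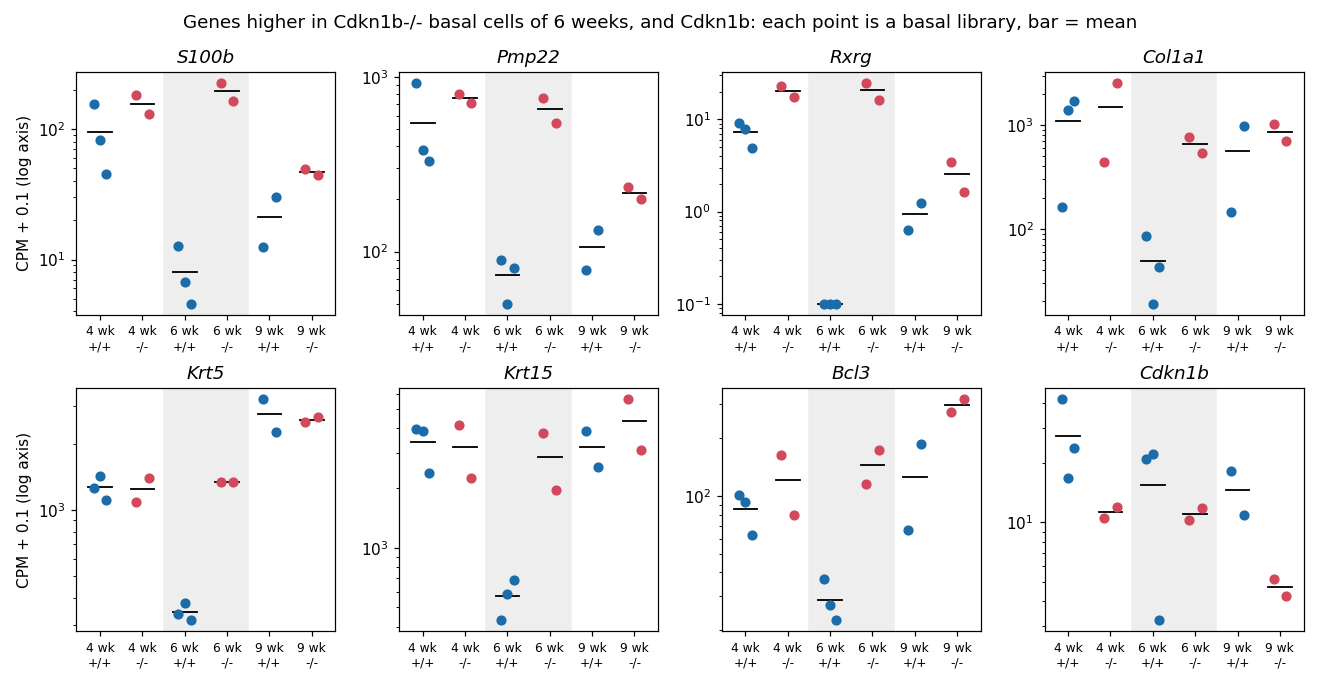
CPM (plus 0.1, log axis) of 7 genes higher in Cdkn1b-/- basal cells of 6 weeks, and of Cdkn1b, in the 14 basal libraries by age and genotype; each point is a library and each bar a mean, with the 6-week groups shaded. Rxrg is listed at 0 in the 3 wild-type libraries of 6 weeks, and Cdkn1b overlaps between genotypes at this age.

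Bcl3, an IkB family co-activator that the study names, was among those 15, at 36.7, 27 and 22.5 CPM in wild type and 116 and 173 in mutants (log2 fold change 2.32, SE 0.50, unadjusted p = 0.00103). Mcl1, an anti-apoptotic Bcl2 relative, was at 315, 393 and 193 against 579 and 739 CPM (log2 fold change 1.13, SE 0.39, unadjusted p = 0.0161), and the groups did not overlap. Of 29 apoptosis genes 17 were higher and 12 lower (median 0.20), and 2 passed in the joint fit, both higher (3.35% of all genes did), and 2 without WTRU (6.67%). Immediate early genes were higher in 24 of 31 (median 0.58); Nr4a1 was at 136, 158 and 105 against 483 and 503 CPM (log2 fold change 1.88, SE 0.46, unadjusted p = 0.00227) and Fos at 745, 478 and 816 against 1644 and 2884 (log2 fold change 1.73, SE 0.44, unadjusted p = 0.003). At other ages Fos was at 4547 to 10117 CPM, above all 5 libraries.

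Hyaluronan synthases, also named by the study, were uneven. Has2 was at 69.3, 124 and 48.0 CPM in wild type and 224 and 288 in mutants (log2 fold change 1.66, SE 0.51, unadjusted p = 0.00934). Has1 was at 8.45, 11.7 and 0 against 56.7 and 29.4 (log2 fold change 2.66, SE 1.66, unadjusted p = 0.14). Has3 was at 0, 0 and 6.97 against 0.678 and 0.691 CPM, present in WTRU alone among the wild-type libraries, so that its log2 fold change of -1.76 (SE 2.86) becomes 6.70 in the joint fit without WTRU. Of the 15 genes the study names for this comparison, a choice made on these samples and so no independent evidence, 8 were higher and 7 lower, 6 and 3 of them at an unadjusted p under 0.05, and 4 and 2 passed in the joint fit, 6 and 2 without WTRU.

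Cell cycle genes were examined because p27 restrains the cycle. Of 23 CDK inhibitors, G1 cyclins, their kinases, and E2F and Rb family genes, none had an unadjusted p under 0.05 (8.99% of all genes did) and none passed in the joint fit, with or without WTRU, with 12 higher and 11 lower and a median of 0.27. Cdkn1a, which encodes p21, was at 42.5, 73.7 and 164 CPM in wild type and 61.2 and 51.7 in mutants, and Cdk4 at 88.5, 91.2 and 105 and 214 and 118 (log2 fold change 0.79, SE 0.41, unadjusted p = 0.0857). E2f4, a repressive E2F, was at 141, 173 and 80.4 and 96.9 and 91.0 and overlapped. Of 36 S phase genes 22 were higher (median 0.27) and 1 passed in the joint fit (3.35% of all genes passed higher), 4 without WTRU (6.67%). Of 46 G2/M genes 31 were higher (median 0.68), 16 of them without overlap (26.3% of all genes were). In the joint fit 4 passed, all higher (3.35% of all), and 15 without WTRU, all higher (6.67%). Summed over the list, G2/M genes were at 1567, 1552 and 3041 CPM in WTRM, WTLU and WTRU and 2047 and 1681 in KORU and KOLM. Aurkb, the mitotic kinase, was at 2.59, 0.754 and 0.124 against 17.8 and 11.7 CPM (log2 fold change 3.64, SE 1.25, unadjusted p = 0.0161), and Cdc20, an activator of the anaphase-promoting complex, at 10.3, 2.26 and 3.86 against 41.6 and 23.1 (log2 fold change 2.55, SE 1.2, unadjusted p = 0.0599).

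**Figure D5:**
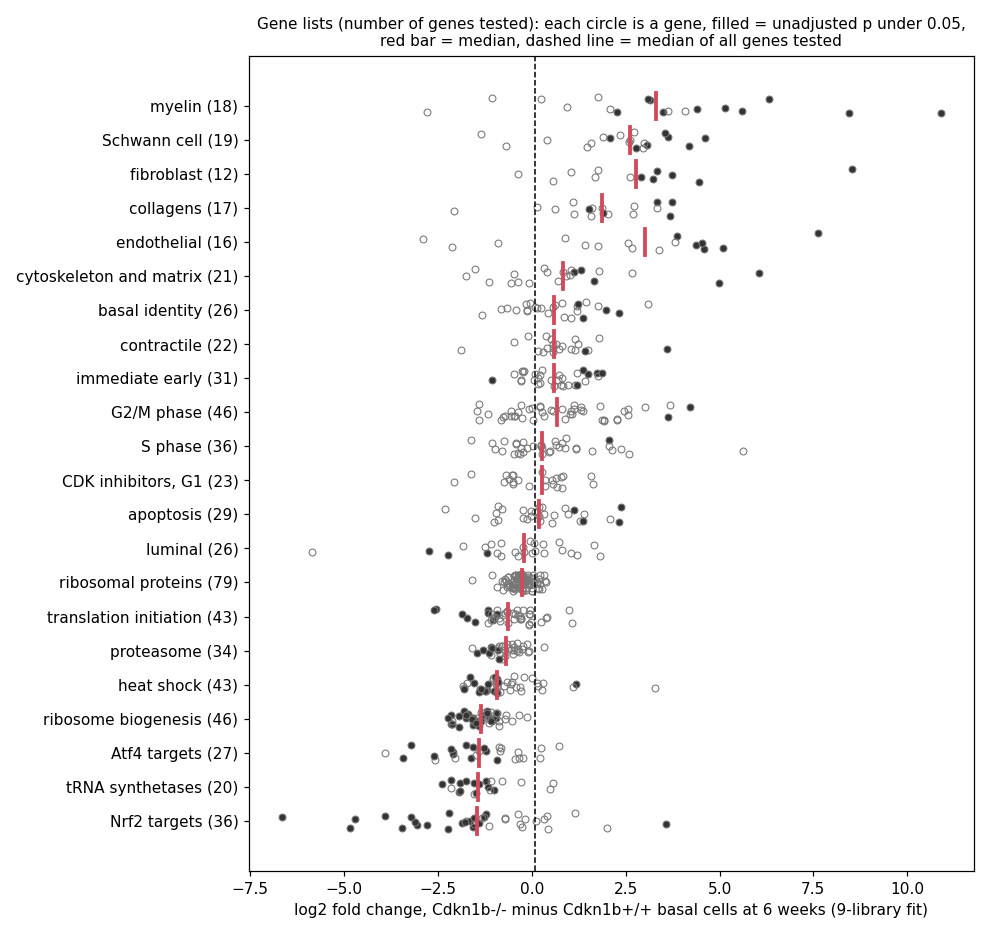
Log2 fold change (Cdkn1b-/- minus Cdkn1b+/+ basal cells of 6 weeks, 9-library fit) of each tested gene in 22 lists, with the number tested in brackets; filled circles have an unadjusted p under 0.05, red bars are medians and the dashed line is the median of all genes, 0.08. Medians run from 3.32 for myelin to -1.47 for Nrf2 targets.

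Whether the difference was particular to basal cells was asked with the luminal libraries of the same animals. The genotype effect in basal cells minus that in luminal cells gave no gene at an adjusted p of 0.05 (0%) in edgeR's test, with 884 at an unadjusted p under 0.05 (7.42%), while DESeq2 called 135. With the animal as a block in the 8 libraries of the 4 animals that gave both cell types, the count was 0 as well, and 454 at an unadjusted p under 0.05. The luminal library of KOLM, 1 of 2 from mutants, held more stromal RNA than the other luminal ones. Its adipocyte genes summed to 8831 CPM against at most 417, and its fibroblast genes to 4314 against at most 106. No fit of this difference left it out, so the lack of calls does not show that the effect was shared. Of the 15 leading lower genes 14 were also lower in both luminal mutants than in both luminal wild types (3164 of all 11921 genes were), and 5 had an unadjusted p under 0.05 for the difference between cell types. Of the 15 leading higher genes 13 were also higher in both luminal mutants (2758 of all 11921 genes were), and 3 had an unadjusted p under 0.05 for that difference (884 of all genes did). Nqo1 was at 559 and 278 CPM in wild-type and 29.0 and 50.7 in mutant luminal cells, Hmox1 at 5036 and 8209 against 521 and 449, and Akr1b8 at 1128 and 274 against 16.4 and 4.13. Lars was at 383 and 314 against 96.0 and 85.0 CPM.

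Among the genes that differed more in one cell type, Osgin1 was at 65.8 and 61.1 CPM in wild-type and 38.8 and 43.0 in mutant luminal cells, and its log2 fold change in basal minus luminal cells was -2.49 (SE 0.62, unadjusted p = 0.00276). Psph was at 28.6 and 38.5 against 54.1 and 63.1 in luminal cells, and the difference was -2.97 (SE 0.63, unadjusted p = 0.000859). Bcl3 was at 216 and 85.9 against 171 and 109, with a difference of 2.42 (SE 0.75, unadjusted p = 0.0092). None of these passes after adjustment over all genes. The nucleolar and initiation lists had medians of -1.14 and 0.10 in luminal cells, against -1.36 and -0.64 in basal cells. The luminal medians include the library of KOLM.

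Against other ages, the genotype effect was tested as a difference of differences in the 14 basal libraries. In that same fit no gene passed between the genotypes at 4 or at 9 weeks (0% each), with 142 (1.14%) and 158 (1.26%) of 12500 at an unadjusted p under 0.05. Both shares are below what a threshold of 0.05 gives with no effect at all. The estimate of spread there includes the 6-week libraries, so the lack of calls says little about genotype at 4 or 9 weeks. The effect at 6 weeks differed from that at 4 weeks in 11 genes (0.088%) and from that at 9 weeks in 9 (0.072%), while DESeq2 called 400 and 404. The comparisons share the 6-week libraries. Adm, Agpat2, Akr1b8, Gclm, Klhl36, Rxrg and Zc4h2 passed in both, Nqo1, Aspa, Mmd2 and Ugt8 against 4 weeks only and Hibadh and Wif1 against 9 weeks only. Without KOLM neither test called any gene, and without KORU each called 1.

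Klhl36 and Zc4h2 were listed at 0 in all 3 wild-type libraries of 6 weeks, with 74 and 30 counts of Klhl36 and 131 and 73 of Zc4h2 in KORU and KOLM; the other basal libraries held 7.92 to 15.9 and 3.97 to 15.3 CPM. Hibadh, a mitochondrial enzyme of valine breakdown, was at 47.0, 44.7 and 40.5 CPM in wild type and 177 and 159 in mutants of 6 weeks, and 105 to 366 at other ages. Wif1, a secreted Wnt inhibitor, was at 7.19, 20.9 and 9.46 against 60.8 and 65.5, and 6.56 to 111 at other ages. In the lower genes of this set the wild-type libraries of 6 weeks alone were high: Gclm reached no more than 74.4 CPM, and Agpat2 no more than 12, in any basal library of 4 or 9 weeks.

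The share of reads outside genes was higher in WTRM and WTRU than in the other 3 libraries, and its part in the results was not tested. Age within the group, the day of sorting and dissociation, and library preparation are not in the labels used here for these 5 libraries beyond a number after the animal code, 5.9 for all but KORU (5.3), whose meaning is not stated. Their part was not tested either, and with 3 and 2 animals genotype cannot be told apart from anything else that the 3 wild-type animals shared.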

How the data were processed

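RNA-seq libraries were made from sorted cells with a low-input kit and sequenced single-end. The authors aligned reads to rn6 with STAR 2.5.1b and deposited raw counts per gene from HTSeq, with reads outside genes listed apart and left out here. Reads on more than 1 gene or place were not counted. From these counts edgeR 4.0.16 (TMM, its expression filter, quasi-likelihood test, R 4.3.3) compared genotypes, with Benjamini-Hochberg adjustment at 0.05. DESeq2 1.42.0 and limma 3.58.1 (voom) served as alternatives. Basal samples were 3 Cdkn1b+/+ and 2 Cdkn1b-/-, 1 library an animal by their codes. Scripts were tested on simulated data of smaller spread than these libraries show, a check of the code and not of power. Members and gene lists were chosen with earlier results of these data known, and 6 lists (Nrf2, Atf4, tRNA synthetases, ribosome biogenesis, proteasome, low oxygen) after levels were seen. Named genes are Cdkn1b, those the study names, up to 15 per direction by smallest unadjusted p (none passed after adjustment) with mean log2 CPM above 2 and genotypes that did not overlap, and abundant list members that did or did not pass. Others were chosen after their values were seen. Promoter sequences are RefSeq's on GRCr8, not the build of the counts. Some items are not reported here.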

Additional observations from a re-analysis of the deposited data

Results flagged for a closer look

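The genotype effect in basal cells of 6 weeks differed from that of 4 weeks in 11 genes and from that of 9 weeks in 9, by a test of the difference itself (edgeR's quasi-likelihood test in the 14 basal libraries, adjusted p under 0.05). Values are log2, the effect at 6 weeks minus that at the other age, and a positive value means a larger excess in Cdkn1b-/- cells at 6 weeks. Several of the genes with positive values are listed at 0 in wild type of 6 weeks, so that their fitted values depend on the prior count and are no bound.

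Against 4 weeks, Gclm had -4.92, Akr1b8 -8.39, Nqo1 -5.51, Adm -3.62 and Agpat2 -3.5. The higher genes were Zc4h2 with 10.25, Rxrg with 9.96, Klhl36 with 9.57, Aspa with 10.05, Ugt8 with 11.09 and Mmd2 with 10.74. The adjusted p ranged from 0.00266 for Gclm to 0.0471 for Mmd2.

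Against 9 weeks, Gclm had -5.02, Akr1b8 -8.34, Adm -3.95 and Agpat2 -3.95. The higher genes were Zc4h2 with 10.39, Rxrg with 10.00, Klhl36 with 9.08, Wif1 with 5.29 and Hibadh with 2.69. In each of these genes the 3 wild-type libraries of 6 weeks and the 2 mutants do not overlap.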

How the results depend on the processing

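Of 2426 values of 106 named genes under 23 alternatives, 1643 kept their direction and side of the threshold, 777 newly passed it and 6 reversed. Has3 (-1.76) became 1.83 with voom, 6.29 in the 9 libraries less WTRU and the luminal library of KOLM, 6.36 in the 5 basal libraries less WTRU and 6.70 in the joint fit less WTRU. Sox10 (0.41) became -0.13 without KORU in both fits, and ranged from -0.13 to 0.81 when a basal library was left out. The count of genes past the threshold, with list members after it, was 0 and 0 in the main test, with RLE scaling, with at least 10 counts in each basal library and when any basal library was left out (range 0 to 0). It was 8 and 6 with no filter, 1 and 1 in the 5 basal libraries, 584 and 102 in the 14 basal libraries, 330 and 86 with DESeq2 on 9 libraries, 832 and 168 with DESeq2 on 5, and 45 and 22 with voom and the animal as a random block, where the median log2 change of all genes was 0.34 against 0.08. At an unadjusted p under 0.05 with an absolute log2 change above 1 it was 1033. Alternatives chosen after seeing the data gave 8 and 6 without the luminal library of KOLM, 137 and 43 also without WTRU, 1223 and 199 in the 5 basal libraries less WTRU, 185 and 52 in the 10 of 4 and 6 weeks, and 555 and 100 in the 14 with RLE. Less 1 library, the 14 gave 524 and 88 (WTRM), 951 and 109 (WTLU), 1154 and 149 (WTRU), 42 and 12 (KORU), and 74 and 22 (KOLM). The share of calls that were higher in mutants was 71.7% in the joint fit, 51.8% with DESeq2 on 9 libraries and 41.2% on 5, and in the joint fit 91.9% without KOLM; tool and libraries both changed between these. The causes were not tested.

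For basal minus luminal cells, the paired fit with the animal as replicate block called 0 genes, as did the main test, and DESeq2 called 135. For 6 minus 4 weeks DESeq2 called 400 in place of 11, and leaving out 1 library gave 0 (KOLM) to 214 (WTLU). For 6 minus 9 weeks it called 404 in place of 9, and leaving out 1 library gave 0 (KOLM) to 208 (WTLU). Depth was lowest in WTRU (7985619 counts), and with 2 mutant animals a call rests on both of them.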
